A study of Homo sapiens with 4 samples.

Results

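The 10 genes described here encode the G1 cyclins and the inhibitors of the kinases that those cyclins activate. They are CCND1, CCND2, CCND3, CCNE1 and CCNE2 for the cyclins, CDKN1A, CDKN1B and CDKN1C for the CIP/KIP inhibitors, and CDKN2A and CDKN2B for the INK4 inhibitors. They were chosen by name, as the rows of the count files whose Ensembl identifier carries one of these symbols in GENCODE release 29, and they are 10 of the 57500 genes counted. All 10 passed the filter on low counts, which kept 22511 genes. RNA was sequenced from parental SUM159 cells, a metaplastic breast cancer (MpBC) line labelled triple-negative, and from 3 NOS2KO SUM159 clones, with 1 library each. The knockout cells had been transfected with a double nickase CRISPR plasmid against NOS2, the gene of the inducible nitric oxide synthase iNOS, and selected with puromycin. Resistant clones were then picked by immunoblot for iNOS and by a nitrite and nitrate assay. All cells grew in DMEM with serum and antibiotic. Each knockout line is 1 clone, and the labels describe no transfected, selected or cloned control line, so effects of the knockout and of cloning cannot be told apart.

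Total counts on genes ran from 90467395 to 122171287 per library, and a floor of 3 counts corresponded to 0.0246 to 0.0332 CPM, the count scaled to a library of 1000000. NOS2 had 2 counts in parental cells, 3 in clone 1, 1 in clone 6 and 18 in the library labelled clone 5. At these counts its mRNA cannot serve as a check on the labels, and it was highest in a library labelled knockout. Of the markers of the label, ESR1 stayed between 0.0785 and 0.741 CPM and PGR at or under 0.0281 CPM, whereas ERBB2 was at 48.3 to 106 CPM. Of 5 mesenchymal markers none was called, 3 were higher in all 3 clones and 1 was lower. VIM was at 1655 CPM in parental cells and 2890 to 3855 CPM in the clones, and ZEB1 at 83.7 and 39.5 to 57.8 CPM. Of 7 epithelial markers, 6 had a log2 fold change above 0, with a median of 1.61 over the 7. Only 2 of the 7, KRT8 and KRT18, were higher in all 3 clones. With a filter of at least 1 CPM in a library, 4 were tested and their median was 0.85. None of the 7 was called higher and 1, KRT14, was called lower, at 3.96 CPM in parental cells and 0 to 0.209 CPM in the clones. EPCAM and CDH1 stayed under 0.5 CPM in every library, whereas KRT8 and KRT18 were at 254 and 303 CPM in parental cells and 416 to 806 and 326 to 467 CPM in the clones. The blood and endothelial markers summed to 33.6 CPM in parental cells and 63.8 to 121 CPM in the clones. In the clones most of that sum was PTPRC, the only one of them called, which was higher at 41.7 to 105 CPM than in parental cells (4.45 CPM), while CD3E was at 0 to 0.075 CPM. CD14 and PECAM1, most of the parental sum, were at 12.8 and 16.1 CPM there and at 2.29 to 11.3 and 7.06 to 13.9 CPM in the clones. Their part in the results was not tested.

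As background, a cell in G1 prepares to copy its DNA when D-type cyclins bind and activate the kinases CDK4 and CDK6, which begin to phosphorylate the retinoblastoma protein RB. Cyclins E1 and E2 then activate CDK2, RB releases the E2F transcription factors, and the genes of S phase are switched on. INK4 proteins bind CDK4 and CDK6 and keep D cyclins off, whereas CIP/KIP proteins bind whole cyclin and kinase complexes and block CDK2. In breast cancer CCND1 is often amplified, and the CDKN2A and CDKN2B locus is often deleted or silenced.

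The 3 D cyclins differ in sequence but share the short stretch by which they reach RB. The first 60 coding bases of each are shown because they carry this stretch, the Leu-x-Cys-x-Glu motif, whose 15 bases are in capitals. They come from GENCODE release 29 on GRCh38, at chr11:69641314-69641373 (plus strand) for CCND1, chr12:4274041-4274100 (plus strand) for CCND2 and chr6:41941590-41941649 (minus strand) for CCND3.
CCND1: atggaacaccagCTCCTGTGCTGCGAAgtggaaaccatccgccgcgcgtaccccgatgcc
CCND2: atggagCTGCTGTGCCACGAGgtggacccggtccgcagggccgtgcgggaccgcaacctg
CCND3: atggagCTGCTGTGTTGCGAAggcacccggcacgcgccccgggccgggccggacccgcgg
The motif lay at codons 5 to 9 of CCND1 and codons 3 to 7 of the other two, in proteins of 295, 289 and 292 residues. The longest stretch that transcripts of any pair of D cyclins had in common was 23 bases. It was 20 bases for the E cyclins and at most 16 bases for the CIP/KIP genes, so paired reads of these families could be told apart. CDKN2A and CDKN2B had up to 80 bases in common. Reads wholly within that stretch could not be told apart, and how the counting treated them is not given in the sources used here.

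CDKN2A and CDKN2B lie next to each other, and CDKN2A has 2 starts that lie 20.5 kb apart. The far start gives p14ARF and the near one gives p16INK4a, an inhibitor of CDK4 and CDK6. The 250 bases before each RefSeq start (GRCh38.p14, minus strand) are shown because CDKN2A and CDKN2B had the lowest mean levels per kilobase of the 10 genes over the clones, with GC boxes (GGGCGG on either strand, matches that overlap counted) in capitals. The windows are chr9:21995325-21995574 before the far start, chr9:21974858-21975107 before the near start and chr9:22009306-22009555 before CDKN2B.
CDKN2A, start of p14ARF: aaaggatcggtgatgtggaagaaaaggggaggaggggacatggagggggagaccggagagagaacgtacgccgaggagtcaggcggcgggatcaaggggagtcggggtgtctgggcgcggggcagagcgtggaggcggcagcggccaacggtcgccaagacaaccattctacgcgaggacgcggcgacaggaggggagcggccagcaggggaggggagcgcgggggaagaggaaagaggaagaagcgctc
CDKN2A, start of p16INK4a: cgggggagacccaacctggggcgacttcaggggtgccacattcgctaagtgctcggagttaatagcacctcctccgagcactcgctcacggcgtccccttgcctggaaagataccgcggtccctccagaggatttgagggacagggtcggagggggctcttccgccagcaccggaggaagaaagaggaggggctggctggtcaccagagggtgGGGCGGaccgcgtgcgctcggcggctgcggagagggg
CDKN2B: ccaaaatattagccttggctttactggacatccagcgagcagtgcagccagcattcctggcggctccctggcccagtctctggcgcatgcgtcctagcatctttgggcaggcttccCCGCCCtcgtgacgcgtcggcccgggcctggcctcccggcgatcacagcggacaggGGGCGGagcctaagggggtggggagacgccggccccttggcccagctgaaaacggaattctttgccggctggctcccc
The 3 windows held 0, 1 and 2 GC boxes at a GC content of 66.8%, 66.8% and 66.4%, against a median of 58% over the 35116 promoter windows in the table. A GC box stood in 42.6% of all windows. None of the 3 held TGACTCA, the AP-1 motif, TATAAA or CCAAT, searched on both strands, which stood in 4.2%, 10.7% and 32% of all windows. These matches describe letters only. Of the 10 genes, 6 had windows in that table, 9 windows in all.

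The levels of the 10 genes spanned from 856 CPM to a single read. In the edgeR quasi-likelihood test of the 3 clones against the parental library, 1 of the 10 met the study's criterion for higher expression and 2 met it for lower expression. That criterion is an unadjusted p under 0.05 with a log2 fold change above 1 or below -1, and 4.24% of all tested genes met it upward and 5.34% downward. The study used these cutoffs with a Wald test, so only the cutoffs are the same here. The gene called higher was CDKN1C, and those called lower were CDKN2A and CDKN2B. In bulk RNA, fewer cells that express a gene and less RNA per cell cannot be told apart. No test of the 10 genes as a group was run. An unadjusted p under 0.05 was found for 3 of the 10 and for 2590 of the 22511 genes tested. None of the 10 had an adjusted p under 0.05, and 0.00444% of all genes, a single gene, passed it. DESeq2's Wald test gave 1 of the 10, CDKN1C, and 4.86% of all genes an adjusted p under 0.05. It gave CDKN2B no adjusted p, and genes without one count here as not passing. Only the clones inform the spread (2 residual degrees of freedom), and a permutation test of 1 library against 3 cannot give a p below 0.25. Nothing says whether more than 1 culture stood behind a library, so p-values measure only the spread between these libraries.

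**Figure D1:**
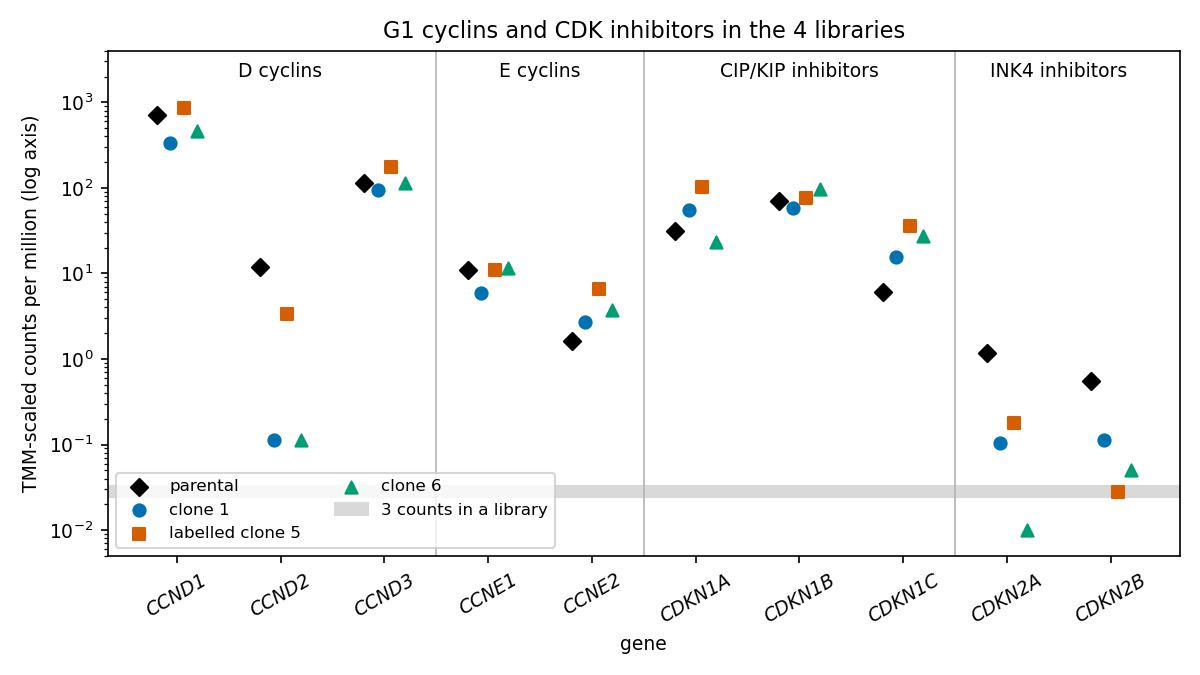
TMM-scaled CPM (log axis) of the 10 genes (x axis, by family) in the parental library and each clone, 1 symbol per library, with a grey band at the level of 3 counts. The parental symbol lies above all clones for CCND2 (11.9 CPM) and below them for CCNE2 and CDKN1C (1.64 and 6.10 CPM), and CDKN2A and CDKN2B have their highest values in parental cells, at 1.18 and 0.553 CPM.

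Whether the parental library lay outside the range of the clones needs no model. Of the 10 genes, 2 were higher in all 3 clones (CCNE2 and CDKN1C) and 3 were lower in all 3 (CCND2, CDKN2A and CDKN2B), while the groups overlapped for the other 5. Among all tested genes 28.6% were higher and 30.5% lower in all 3 clones. When a difference of over 1 on the log2 scale was asked of every clone, CDKN1C alone of the 10 was higher, against 7.67% of all genes, and 3 of the 10 were lower, against 6.29%. The median log2 fold change of the 10 was -0.037, beside 0.096 over all tested genes.

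**Figure D2:**
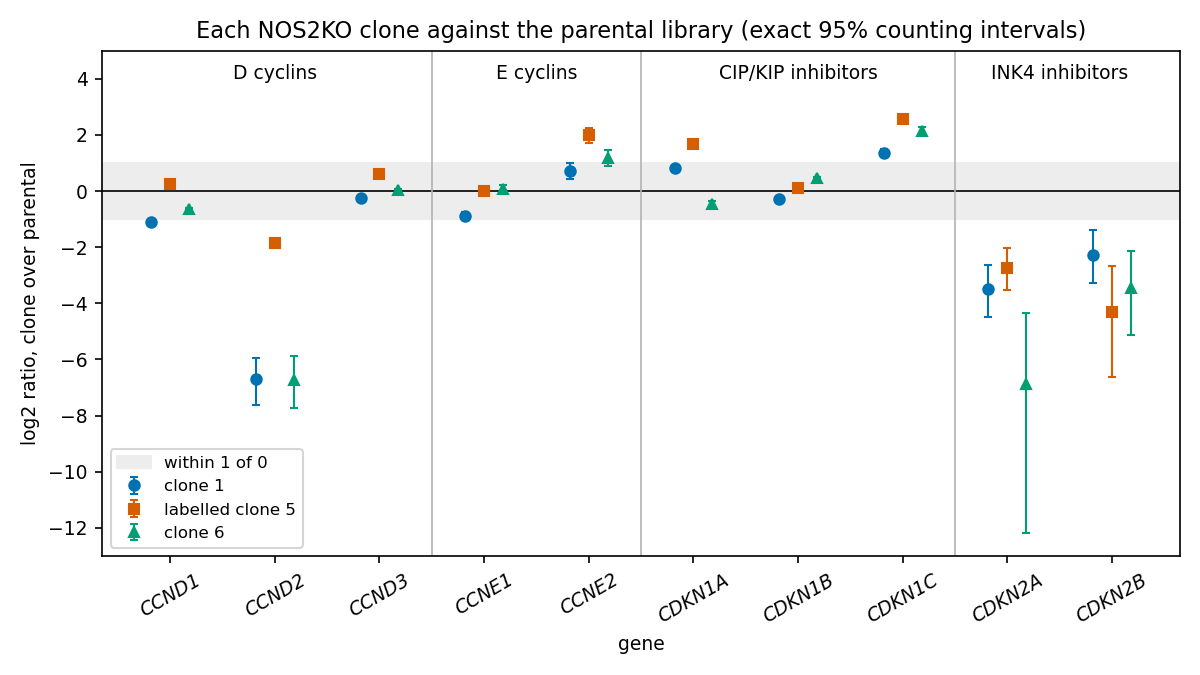
Log2 ratio of each clone to the parental library (y axis) for the 10 genes (x axis), with exact Clopper-Pearson 95% intervals that cover counting error only and a grey band within 1 of 0. The 3 clones sit on 1 side of 0 for CCND2, CCNE2, CDKN1C, CDKN2A and CDKN2B, and CCND2 is at -6.71 and -6.73 in clones 1 and 6 but at -1.83 in the library labelled clone 5.

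Cyclin D1 (CCND1, ENSG00000110092, GRCh38 chromosome 11 from 69641087 to 69654474), the main D cyclin of breast epithelium, was at 717 CPM in parental cells, 334 CPM in clone 1, 856 CPM in the library labelled clone 5 and 466 CPM in clone 6. Parental cells thus lay inside the range of the clones, below the library labelled clone 5 and above the other two. The clone mean was 552 ± 271 CPM (SD, n = 3), and the log2 fold change was -0.38 (SE 0.60, adjusted p = 0.821 by edgeR). The clones differed from each other by more than counting error, with 2.56-fold more in the library labelled clone 5 than in clone 1. CCND1 shared 497 of its 4830 exon bases (10.3%) with LTO1 on the opposite strand, and the library kit does not mark strand. LTO1, a gene needed to build ribosomes, was called lower, at 49.0 CPM in parental cells and 14.9, 16.3 and 15.3 CPM in the clones.

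Cyclin D2 (CCND2, ENSG00000118971, chromosome 12 from 4273772 to 4305350) showed the widest spread of the 5 cyclins, 29.8-fold between clones. It had 1074 counts in parental cells, 13 in clone 1, 11 in clone 6 and 355 in the library labelled clone 5, or 11.9, 0.113, 0.112 and 3.33 CPM. All 3 clones were lower than parental cells, clones 1 and 6 by 105-fold and 106-fold and the library labelled clone 5 by 3.57-fold. Clones 1 and 6 did not differ beyond counting error from each other, at a log2 ratio of -0.023 (95% interval -1.32 to 1.25), whereas the library labelled clone 5 was 29.4-fold above clone 1. The fitted log2 fold change was -3.32 (SE 2.08, adjusted p = 0.549 by edgeR), so CCND2 was not called. Without the library labelled clone 5 it was -6.69 and met the criterion.

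Cyclin D3 (CCND3, ENSG00000112576, chromosome 6 from 41934933 to 42050357) had the narrowest spread of the 3 D cyclins between clones, 1.82-fold. It stood at 114 CPM in parental cells and at 95.4, 173 and 115 CPM in clone 1, the library labelled clone 5 and clone 6. Parental cells and clone 6 were within counting error of each other, with a log2 ratio of 0.022 (95% interval -0.016 to 0.061). The log2 fold change over the clones was 0.17 (SE 0.42, adjusted p = 0.895 by edgeR), and it was -0.086 without the library labelled clone 5. Scaled to exon length, CCND1 made up 87.5% of the D cyclin mRNA in parental cells and 80.8% to 85.4% in the clones. CCND2 held 0.978% of it in parental cells and at most 0.224% in a clone.

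The E cyclins split, with E1 overlapping between the groups and E2 above parental cells in every clone. Cyclin E1 (CCNE1, ENSG00000105173, chromosome 19 from 29811898 to 29824308) was at 10.8 CPM in parental cells, 5.89 CPM in clone 1, 10.8 CPM in the library labelled clone 5 and 11.4 CPM in clone 6. Only clone 1 stood apart, 1.84-fold below parental cells, and the log2 fold change was -0.21 (SE 0.53, adjusted p = 0.899 by edgeR). Without clone 1 it was 0.043.

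Cyclin E2 (CCNE2, ENSG00000175305, chromosome 8 from 94879770 to 94896678) was at 1.64 CPM in parental cells and at 2.68, 6.49 and 3.73 CPM in clone 1, the library labelled clone 5 and clone 6. Every clone was higher, by 1.64-fold, 3.97-fold and 2.28-fold. The fitted log2 fold change was 1.39 (SE 0.68, adjusted p = 0.529 by edgeR), which did not meet the criterion, although it did without clone 1, at a log2 fold change of 1.64. Of the exon bases of CCNE2, 37.0% also belong to INTS8 on the opposite strand. Reads there could come from either gene, and whether they were counted is not given in the sources used here. INTS8 itself had 3423 counts in parental cells and 2972 to 3801 in the clones. Per kilobase of exon, CCNE2 made up 8.07% of the E cyclin level in parental cells and 20.9%, 25.8% and 15.9% in the clones, in the order above. The exon length used includes the bases shared with INTS8, so these shares carry the same doubt as the counts.

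Among the CIP/KIP inhibitors, p57 moved and the other two did not meet the criterion. CDKN1C (p57, ENSG00000129757, chromosome 11 from 2883213 to 2885881 as the files give it) is an imprinted gene, read mainly from the maternal copy, whose protein holds cells out of the cycle as they differentiate. It was at 6.10 CPM in parental cells, 15.5 CPM in clone 1, 36.2 CPM in the library labelled clone 5 and 27.2 CPM in clone 6. Every clone lay above parental cells, by 2.54-fold, 5.94-fold and 4.46-fold, and the lowest 95% counting interval still ran from 1.21 to 1.48 on the log2 scale. The clone mean was 26.3 ± 10.4 CPM (SD, n = 3) and the log2 fold change 2.11 (SE 0.54, adjusted p = 0.356 by edgeR). CDKN1C met the criterion in all 11 alternative settings. Its adjusted p ran from 0.0192, by DESeq2, to 0.739 over those settings.

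CDKN1A (p21, ENSG00000124762, chromosome 6 from 36676460 to 36687339) is an inhibitor switched on after DNA damage. It was at 31.5 CPM in parental cells, 55.2 CPM in clone 1, 102 CPM in the library labelled clone 5 and 23.0 CPM in clone 6. The clones did not share a direction, since clones 1 and 5 as labelled were above parental cells by 1.75-fold and 3.22-fold and clone 6 was below them by 1.37-fold. The clones spanned 4.41-fold, and the log2 fold change was 0.93 (SE 0.81, adjusted p = 0.703 by edgeR). CDKN1B (p27, ENSG00000111276, chromosome 12 from 12715058 to 12722371), which restrains CDK2 in resting cells, stayed between 58.9 and 97.1 CPM in the clones around 70.8 CPM in parental cells. Its log2 fold change was 0.13 (SE 0.37, adjusted p = 0.911 by edgeR). It turned to -0.059 when clone 6 was left out.

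Per kilobase of exon, the make-up of the CIP/KIP mRNA differed from clone to clone. CDKN1B held 66.5% of it in parental cells and 65.7% in clone 6, but 46.5% in clone 1 and 36.6% in the library labelled clone 5. CDKN1A was the largest share in the library labelled clone 5 (44.6%), whereas in clone 6 it held 14.4%. The share of CDKN1C was 6.22% in parental cells and 13.3%, 18.8% and 20.0% in clones 1, 5 as labelled and 6. These shares describe single libraries and were not tested.

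**Figure D3:**
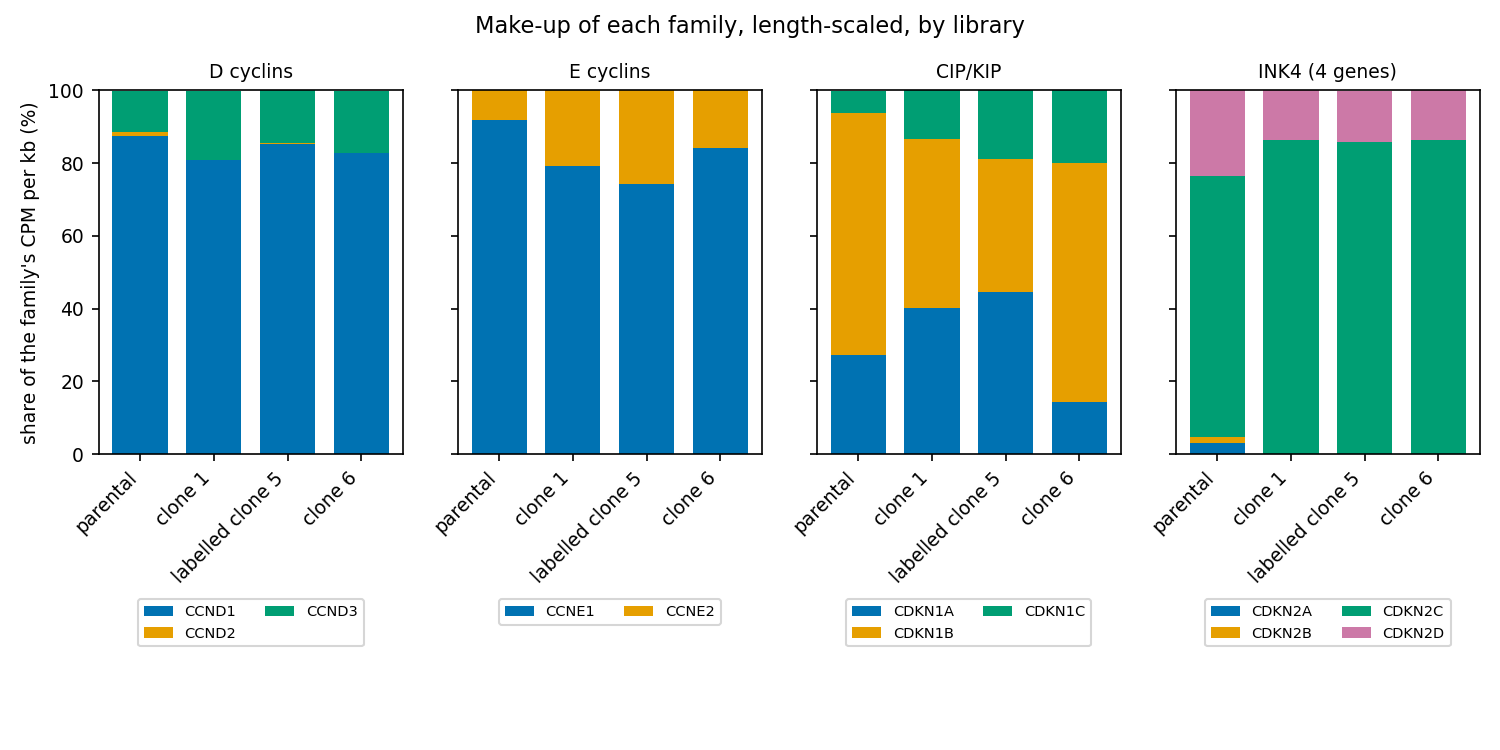
Share (%, y axis) of each gene in the length-scaled mRNA (CPM per kilobase of exon) of its family, 1 stacked bar per library and 1 panel per family, with CDKN2C and CDKN2D added to the INK4 panel. CCND1 fills at least 80.8% of the D cyclin bar in each library, and CDKN2A and CDKN2B are visible in the parental bar only, at 3.11% and 1.55%.

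The INK4 genes CDKN2A and CDKN2B were low in parental cells and lower in every clone. CDKN2A (ENSG00000147889, chromosome 9 from 21967753 to 21995301) had 107 counts in parental cells, 12 in clone 1, 1 in clone 6 and 19 in the library labelled clone 5. These are 1.18, 0.105, 0.0101 and 0.178 CPM. The groups did not overlap, and the log2 ratios to parental cells were -3.50 for clone 1, -6.87 for clone 6 and -2.73 for the library labelled clone 5. The single read of clone 6 leaves a 95% counting interval of -12.18 to -4.36. The log2 fold change was -3.58 (SE 1.33, adjusted p = 0.394 by edgeR). The count adds reads of p16INK4a and p14ARF, which share exons and were not told apart. CDKN2A met the criterion in 9 of 11 alternative settings and missed it without clone 1, where the log2 fold change was -3.62.

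CDKN2B (p15, ENSG00000147883, chromosome 9 from 22002903 to 22009363), an inhibitor of CDK4 and CDK6 that TGF-beta induces, had 50 counts in parental cells, 13 in clone 1, 5 in clone 6 and 3 in the library labelled clone 5. The values were 0.553, 0.113, 0.0507 and 0.0281 CPM, and again no clone reached the parental level. The ratio of the library labelled clone 5 rests on 3 counts and was -4.30 on the log2 scale, with a 95% counting interval of -6.62 to -2.67. The log2 fold change was -3.08 (SE 1.01, adjusted p = 0.359 by edgeR). The criterion was met in 8 of the 10 settings that tested CDKN2B, and it was missed without the library labelled clone 5 (log2 fold change -2.71) and without clone 6 (-2.94). A filter that asks for 1 CPM in a library removed CDKN2B from the test. It also took the call from CDKN2A, at a log2 fold change of -3.54.

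Around both genes almost nothing was read. Of the 23 protein-coding genes that start within 1 Mb of the start of CDKN2A, 20 had at most 2 counts in every library, and 16 of those 20 were interferon genes. MTAP, the methionine salvage enzyme next to CDKN2A, which most cells express, had 1 count in parental cells and 0 in each clone. The antisense RNA CDKN2B-AS1, which shares 341 of the 4329 exon bases of CDKN2A, was at 0 in all 4 libraries. KLHL9, which lies among the interferon genes, was the exception, with 663 counts in parental cells and 718 to 1120 in the clones. DNA copy number was not measured.

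**Figure D4:**
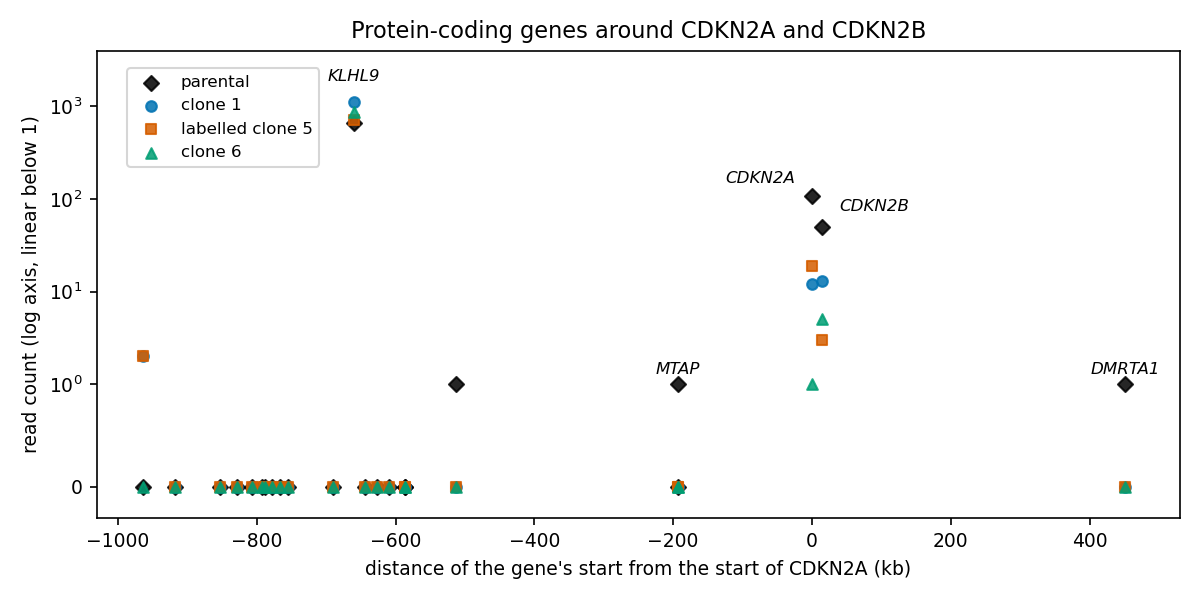
Read counts (log axis, linear below 1) of the 23 protein-coding genes around CDKN2A against the distance in kilobases of their start from its start, 1 symbol per library, with positive distances toward higher coordinates. CDKN2A and CDKN2B hold 107 and 50 parental counts and at most 19 counts in a clone, KLHL9 holds 663 to 1120 counts, and the other 20 genes lie at 2 counts or fewer.

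The other INK4 genes went the opposite way. CDKN2C (p18), which inhibits CDK4 and CDK6 and is switched on by E2F, was at 21 CPM in parental cells, 278 CPM in clone 1, 149 CPM in the library labelled clone 5 and 103 CPM in clone 6. It was called higher, with a log2 fold change of 3.07 (SE 0.61, adjusted p = 0.332 by edgeR). CDKN2D (p19), with the same targets, was at 3.10 CPM in parental cells and at 19.7, 11.2 and 7.41 CPM in the clones, and was called higher (log2 fold change 2.04, adjusted p = 0.411 by edgeR), although not without the library labelled clone 5. Per kilobase of exon, CDKN2C was 71.9% of the INK4 mRNA in parental cells and 86.4%, 85.7% and 86.2% of it in clones 1, 5 as labelled and 6. The summed INK4 level was 8.81 CPM per kilobase in parental cells and 97.1, 52.5 and 36.0 CPM per kilobase in the clones. CDKN3, a phosphatase that acts on CDK1 and CDK2, stood at 15.3 CPM in parental cells and at 136, 21.6 and 29.8 CPM in the clones and was not called.

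Ordered by CPM per kilobase of exon, the parental levels ran from CCND1 (148) through CDKN1B (25.2), CCND3 (19.6), CDKN1A (10.3), CCNE1 (4.24), CDKN1C (2.36) and CCND2 (1.66) to CCNE2 (0.372), CDKN2A (0.273) and CDKN2B (0.136). In the clones the mean level of CDKN1C was 10.2 ± 4.02 CPM per kilobase (SD, n = 3), above CCNE1 at 3.68 ± 1.19. That of CCND2 was 0.166 ± 0.260, below CCNE2 at 0.978 ± 0.448. CDKN1B, CCND3 and CDKN1A, at 27.6 ± 6.79, 22.1 ± 6.97 and 19.6 ± 12.9, were neighbours whose spreads overlapped in the clones. So were CDKN2A and CDKN2B, at 0.0226 ± 0.0195 and 0.0158 ± 0.0109.

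The clones also differed from each other. Of the 10 genes, 7 spanned over 1 on the log2 scale between the highest and lowest clone, against 44.1% of all tested genes. Against the parental library, 5 of the 10 differed by over 1 in clone 1 (1 higher and 4 lower), where 37.3% of all genes did. The library labelled clone 5 had 6 such genes (3 higher and 3 lower) against 36.0% of all genes, and clone 6 had 5 (2 higher and 3 lower) against 36.0%. Clone 1 had the lowest level of the 3 clones for CCND1, CCND3, CCNE1, CCNE2, CDKN1B and CDKN1C. The library labelled clone 5 had the highest for CCND1, CCND2, CCND3, CCNE2, CDKN1A, CDKN1C and CDKN2A.

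Of the kinases that these proteins bind, CDK2 was called higher and CDK6 lower. CDK2, the partner of the E cyclins, was at 33.2 CPM in parental cells and 89.4, 81.0 and 60.6 CPM in clone 1, the library labelled clone 5 and clone 6 (log2 fold change 1.21, SE 0.33, adjusted p = 0.356 by edgeR). CDK6, a partner of the D cyclins, was at 100 CPM in parental cells and 41.9, 49.8 and 41.3 CPM in the clones (log2 fold change -1.18, SE 0.27, adjusted p = 0.327 by edgeR). CDK4, the other partner, stood at 204 CPM in parental cells and at 153, 220 and 191 CPM in the clones, and the groups overlapped. Of the 8 G1 kinases and activators tested, 1 was called higher and 2 lower, with a median log2 fold change of -0.19. The second one called lower was MNAT1, a part of the kinase that activates CDKs, at 34.8 CPM in parental cells and 14.7 to 20.2 CPM in the clones, and it lost the call without clone 5 as labelled and without clone 6. With upper quartile scaling, too, only 1 of the 8 was called lower. The phosphatase CDC25A, which removes the block on CDK2, was at 18.8 CPM in parental cells and 10.6 to 23.3 CPM in the clones and was not called.

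Downstream of the G1 kinases, 1 of 13 pocket protein and E2F genes was called higher and 1 lower, with a median log2 fold change of 0.0071. RB1, the substrate itself, was at 39.8 CPM in parental cells and at 44.7, 24.7 and 24.4 CPM in the clones, and E2F1 at 32.8 CPM in parental cells and 55.2, 52.9 and 31.8 CPM. Neither was called. E2F5, a repressor, was called lower, at 30.1 CPM in parental cells and 4.92 to 5.90 CPM in the clones, and E2F8, also a repressor and a target of E2F1, was called higher, at 2.53 CPM in parental cells and 8.41 to 10.3 CPM in the clones. Without clone 6 the call of E2F8 was lost (log2 fold change 1.74).

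Of 13 genes of the ligases that destroy G1 cyclins and inhibitors, 1 was called higher and 1 lower, with a median of 0.15. RBX1, the RING subunit of cullin ligases, was called higher, at 29.6 CPM in parental cells and 52.1 to 69.8 CPM in the clones, although not without clone 1 (log2 fold change 0.91) or clone 6 (1.05). FBXO4, an F-box protein linked to the turnover of cyclin D1, was called lower, at 37.5 CPM in parental cells and 14.8 to 18.6 CPM in the clones, but not without clone 5 as labelled (log2 fold change -1.14). SKP2, which marks p27 for destruction, was at 49.5 CPM in parental cells and 78.8 to 91.4 CPM in the clones, and its log2 fold change of 0.78 did not reach 1. Its cofactor CKS1B was at 75.4 CPM in parental cells, 167 CPM in clone 1, 39.0 CPM in the library labelled clone 5 and 41.1 CPM in clone 6.

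The S phase and mitotic cyclins with CDK1 had a median log2 fold change of 1.68, and 1 of 7, CDK1, was called higher. The median log2 ratio to parental cells was 2.84 in clone 1 and 0.84 and 0.92 in clones 5 as labelled and 6. With clone 1 left out, the fitted median of these 7 genes was 0.89 on the log2 scale, still above parental cells, and 3 were called higher. Leaving out clone 5 as labelled also gave 3 called higher, DESeq2 gave 4, and leaving out clone 6 gave none. CDK1 was at 22.9 CPM in parental cells and at 170, 51.9 and 90.5 CPM in clones 1, 5 as labelled and 6. CCNA2, the S phase cyclin, was at 22.7 CPM in parental cells and at 205, 43.1 and 53.5 CPM in the clones and was not called. Of 20 proliferation markers, 4 were called higher (TYMS, PCNA, AURKB and RRM2) and none lower, with a median of 1.25 over the clones. The median log2 ratio to parental cells was 2.11 in clone 1 and 0.28 and 0.41 in clones 5 as labelled and 6, so clone 1 stood apart. Summed, these markers came to 1673 CPM in parental cells and to 5240, 2288 and 2340 CPM in the clones, and their part in the levels of the 10 genes was not tested. MKI67 was at 59.8 CPM in parental cells and at 369, 145 and 139 CPM in the clones and was not called (adjusted p = 0.45 by edgeR). Without clone 1 the median of the proliferation markers was 0.34 and 7 were called higher, where 8.18% of all genes were. DESeq2 on all 4 libraries also called 7 higher, and 7.07% of all genes, and without clone 5 as labelled 7 were called, against 3.20% of all genes. AURKB lost its call without clone 6.

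**Figure D5:**
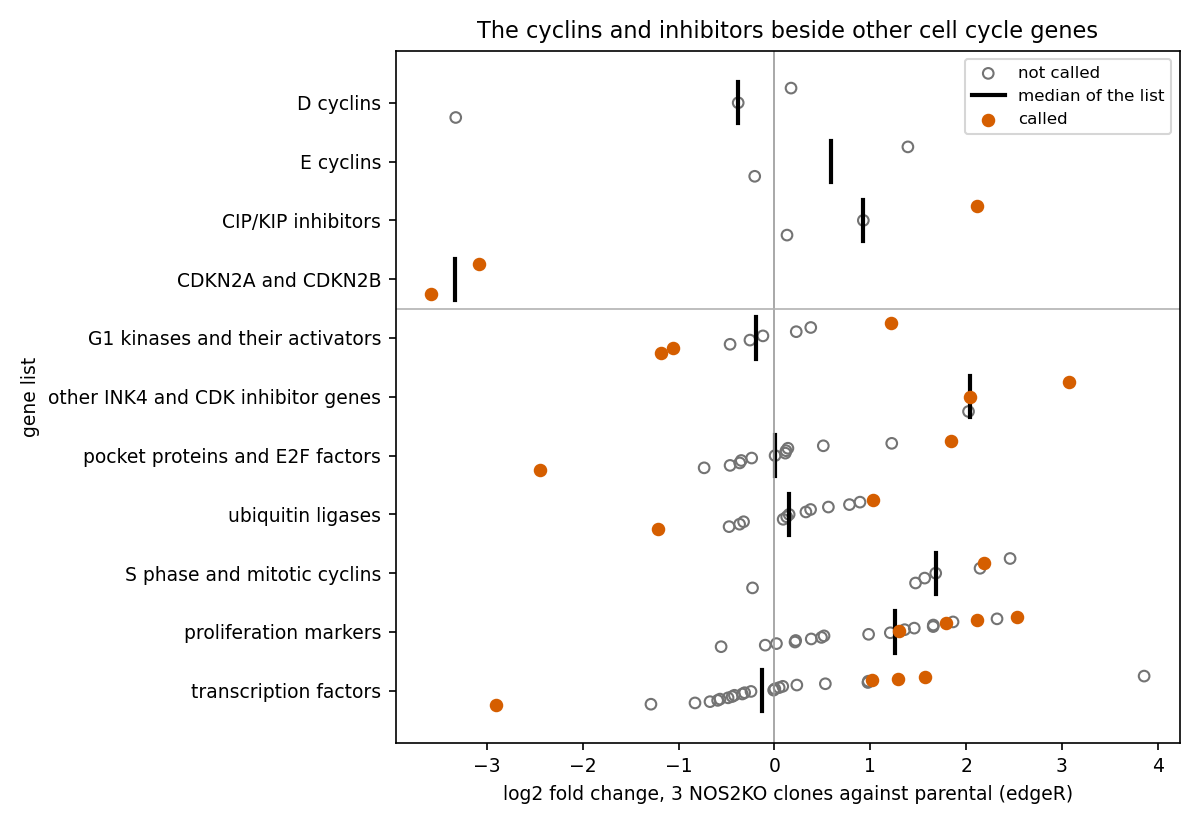
Log2 fold changes of the 3 clones against parental cells (x axis, edgeR) for the 10 genes by family (upper 4 rows) and for 7 lists of other cell cycle genes (y axis), 1 circle per gene, filled where the criterion was met, with a bar at the median of each list. The S phase and mitotic cyclins and the proliferation markers have medians of 1.68 and 1.25, and the median of the other INK4 and CDK inhibitor genes is 2.04.

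Of 24 transcription factors known to act on the 10 genes, 3 were called higher and 1 lower, with a median of -0.13. JUN, a part of AP-1 that drives CCND1, was called higher, at 108 CPM in parental cells and at 398, 234 and 328 CPM in clones 1, 5 as labelled and 6. TWIST1 and TP63 were also called higher, at 16.1 and 42.4 CPM in parental cells and 29.5 to 36.1 and 76.5 to 127 CPM in the clones. TWIST1 lost the call when any 1 of the clones was left out, and TP63 lost it without clone 5 as labelled. MXD1, which competes with MYC for its partner MAX, was called lower, at 79.6 CPM in parental cells and 9.10 to 13.5 CPM. MYC, which represses CDKN1A and CDKN2B, stood at 604 CPM in parental cells, 672 CPM in clone 1, 129 CPM in the library labelled clone 5 and 220 CPM in clone 6, and was not called.

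Of the genes around CDKN1C, 11 of 12 listed symbols were tested, 1 was called higher and 1 lower, and the median was 0.45. KCNQ1OT1, the noncoding RNA of the paternal copy that silences CDKN1C in cis, was itself called higher, at 1.5 CPM in parental cells and at 4.57, 3.69 and 3.86 CPM in the clones (log2 fold change 1.42, adjusted p = 0.428 by edgeR). That call was lost in 4 settings, without clone 5 as labelled or clone 6 among them. CARS, a cysteinyl-tRNA synthetase gene of the same region, was called lower, at 232 CPM in parental cells and 97.9 to 107 CPM in the clones. PHLDA2, an imprinted growth inhibitor, overlapped at 43.6 CPM in parental cells and 37.4 to 78.4 CPM in the clones. Of 15 symbols listed around CCND1, CCND2 and CDKN1B, 8 were tested, none was called higher and 1, LTO1, was called lower, with a median of 0.070. Of 7 around CDKN2A and CDKN2B, only KLHL9 was tested, and it was not called.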

How the data were processed

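RNA from parental SUM159 cells and 3 NOS2KO clones, 1 library each, was sequenced as poly(A)-enriched, paired-end libraries made with a kit that does not mark strand. Per the submitters' processing notes, bcl2fastq 2.17, Trimmomatic 0.36, STAR 2.5.2b, featureCounts from Subread 1.5.2 and DESeq2 were used on GRCh38. The strand setting is not given in the sources used here. The authors deposited unnormalized read counts for every gene, in 1 table per library. Symbols and sequences came from GENCODE release 29 (56898 of 57500 genes matched) and promoter windows from RefSeq.

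Fits used edgeR 4.0.16 under R 4.3.3, with filterByExpr on the 2 conditions, TMM factors and the default glmQLFit and glmQLFTest. P-values were adjusted after Benjamini and Hochberg across all 22511 genes that passed the filter. "Called" refers to the study's criterion with its p taken as unadjusted. That is, the unadjusted p is under 0.05 while the absolute log2 fold change is above 1. CPM values use TMM-scaled library sizes, and values per kilobase divide by the exon length in the files. Log2 ratios of single libraries carry exact Clopper-Pearson 95% intervals. Intervals and floors cover counting error only. Library totals were 90467395, 122171287, 101337366 and 97362293 counts for parental cells and clones 1, 5 and 6, with TMM factors of 0.9994, 0.9389, 1.052 and 1.013.

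The 10 genes and the gene lists were chosen with earlier results of these data known. Named beside them were NOS2, fixed partner and marker genes, and up to 3 called genes per list and direction with the smallest p and at least 1 CPM in a library. RRM2, INTS8 and CDKN3 were named after their values were seen. Some genes of these lists, and 1 list, are not reported here. The alternatives were 3 other scalings (by upper quartile, RLE or library size), 2 other filters, robust and bias-adjusted fits, DESeq2 1.42.0 and leaving out each clone. The fits and intervals were tested on simulated data. Tables and figures were made in Python 3.11.15 with pandas 2.3.3, numpy 2.4.6 and matplotlib 3.10.9, and intervals with scipy 1.17.1.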

Additional observations from a re-analysis of the deposited data

How the results depend on the processing

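CDKN1C was called higher in all 11 alternatives, and its log2 fold change ran from 1.83 to 2.38. Of the 10 genes, the number called higher was 1 to 2 when a clone was left out, the number called lower 1 to 2, and the number with parental cells below all clones 2 to 5. It was without clone 1 that these became 2 (CDKN1C and CCNE2), 1 (CDKN2B) and 5, and without clone 6 the number called lower was also 1 (CDKN2A). Over all genes, 2.89% to 8.18% were called higher and 3.72% to 7.34% lower when a clone was left out, both highest without clone 1. Parental cells lie below all clones more easily when fewer clones are compared, and that share over all genes was not counted. A filter of at least 1 CPM in a library left 0 called lower, since CDKN2B was then not tested and CDKN2A lost its call (log2 fold change -3.54). DESeq2's Wald test gave 1 gene with an adjusted p under 0.05, CDKN1C. None of the 3 called genes of the 10 changed sign. Of all genes named by the rules above, the 10 included, 6 uncalled ones did when a clone was left out. CCND3, CDKN1B and CCNE1 are among the 10, whereas ESR1, CDK4 and CKS1B are not. The log2 fold changes then ran from -0.086 to 0.35 for CCND3 and from -0.42 to 1.11 for ESR1, negative without the library labelled clone 5. CDKN1B ran from -0.059, without clone 6, to 0.30. Without clone 1 the sign turned for CCNE1 (-0.37 to 0.043), CDK4 (-0.23 to 0.011) and CKS1B (0.48 to -0.91). The cause was not tested. Upper quartile scaling moved the median log2 fold change of all genes by 0.104. Over all genes, DESeq2 called 1591 higher and 1144 lower and gave 1095 an adjusted p under 0.05, against 955, 1202 and 1 by edgeR. When a clone was left out, edgeR called 641 to 1791 higher and 825 to 1608 lower, with 0 at an adjusted p under 0.05. No filter and the bias-adjusted fit gave 6 and 5 such genes. No paired analysis was possible because parental cells have 1 library and the clone numbers pair nothing. Fewer than 20 counts stand behind each clone's value of CDKN2A and CDKN2B, so their size in the clones is known only within the intervals given.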

Other observations

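H19, an imprinted noncoding RNA on the same chromosome arm as CDKN1C, was at 28.2 CPM in parental cells, 815 CPM in clone 1, 36.4 CPM in the library labelled clone 5 and 59.9 CPM in clone 6. It was above parental cells in every clone but was not called (adjusted p = 0.595 by edgeR). Clone 1 held the highest H19 and the lowest CDKN1C of the 3 clones. IGF2 was at 2.33 CPM in parental cells and at 9.62, 7.86 and 2.94 CPM in the clones. CCNB1, a mitotic cyclin, was at 144 CPM in parental cells, 1036 CPM in clone 1, 150 CPM in the library labelled clone 5 and 206 CPM in clone 6, and was not called either. TP73, a transcription factor, was at 4.56 CPM in parental cells and at 1.12, 14.6 and 0.406 CPM in the clones. Like most of the 10 genes, it was highest among the clones in the library labelled clone 5. FOS, the partner of JUN in AP-1, was at 36.5 CPM in parental cells and at 1094, 102 and 390 CPM in the clones and was not called (adjusted p = 0.452 by edgeR). These genes were singled out after their values were seen.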
